A study of Mus musculus with 12 samples.

Results

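Replicate 3 of C18-4 cells is described here, as 2 libraries, 1 of shNC cells and 1 of shM5 cells, set beside the other 4 C18-4 libraries. Replicate 3 was selected on the measured RPKM values themselves, which set it apart from replicates 1 and 2 in both groups, and its genes were chosen by the same values, so their differences are given as a description and carry no p-value. The table held 17995 genes, and 11611 of them had a mean of at least 0.5 RPKM (reads scaled to gene length and library size) over the 6 libraries. The replicate 3 difference of a gene was its log2(RPKM + 0.1) in replicate 3 minus the mean of replicates 1 and 2 of the same group, averaged over shNC and shM5. Its standard error (SE) came from a fit with the shRNA as a block. A gene was counted when the averaged difference was at least 1.5-fold and replicate 3 lay outside replicates 1 and 2 on the same side in both groups. By this rule 869 genes were higher (7.48% of those tested) and 158 were lower (1.36%), together 1027 genes (8.85%). The rule itself fixed these counts.

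The study asked what the M5 muscarinic receptor, encoded by Chrm5, does in mouse germ cells and Sertoli cells, and sequenced 12 libraries from the lines C18-4 and TM4. C18-4 is an immortalised line of mouse spermatogonial stem cells, and each of its groups had 3 libraries. The shM5 cells were stably transfected with a mix of 3 shRNAs against Chrm5, and the shNC cells, which served as controls, with a control shRNA, so all 6 libraries came from transfected cells. The labels number the replicates and say nothing of cultures, dates or plates, so the spread between libraries may be technical, and p-values measure only that spread.

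The targeted gene, Chrm5, had a value above 0 in only 1 C18-4 library, shNC replicate 2, where it was 0.01 RPKM, so it gave no check of the shM5 labels. The 6 libraries held between 14308 and 14566 genes above 0 RPKM. The RPKM values summed to 512593 in shNC replicate 3 and 506413 in shM5 replicate 3, the lowest sum of each group, against 515879 to 540231 in the other 4. Genes of at least 0.5 RPKM numbered 11754 and 11695 in replicate 3, against 11497 to 11597 in the others. The part of these 2 measures in the replicate 3 difference was not tested. Of 18 spermatogonial markers, 16 were in the table and only 5 reached a mean of 0.5 RPKM. Ret, Zbtb16, Pou5f1, Ddx4, Dazl and Kit, which mark spermatogonia and their descendants, were at most 0.07 RPKM in every library, so the labelled cell type rested on few of its defining markers.

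Cells that lack amino acids, or that carry misfolded protein, phosphorylate the translation factor eIF2α. Global protein synthesis then slows while the transcription factor ATF4 is made, and ATF4 switches on genes for amino acid import, amino acid synthesis and further stress regulators. Heat shock proteins follow a separate regulator, HSF1, and fold new or damaged proteins. Connexins, tubulins and cortical adaptors such as PHLDB2 belong to the junctions and cytoskeleton through which germ cells and Sertoli cells hold together.

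The genes of the ATF4 pathway that were higher in replicate 3 included several whose promoters held the letters of the element that ATF4 binds together with C/EBP proteins. This element was searched on both strands as TGATGNAA, which reads TTNCATCA on the opposite strand, in RefSeq windows of 300 bases on GRCm38.p6 that run from 250 bases before to 50 bases after a gene's start. Windows were matched by gene identifier for 9327 of the 11611 genes tested. Of 15 counted genes of the ATF4 list with a window, 9 held the element (60%), as did 237 of the 9327 genes (2.54%) and 1219 of all 27025 genes with a window (4.51%). The list was compiled from known ATF4 targets, so this share is not independent evidence. A match is a description of letters and does not show binding. Stretches of 100 bases from 5 of the 9 promoters, all with the element before the gene's start, are printed as examples for genes whose values follow, and capitals mark the element.
Fgf21, chr7:45615550-45615649, minus strand: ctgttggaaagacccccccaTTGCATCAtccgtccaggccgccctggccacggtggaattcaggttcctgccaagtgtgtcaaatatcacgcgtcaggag
Nupr1, chr7:126625501-126625600, minus strand: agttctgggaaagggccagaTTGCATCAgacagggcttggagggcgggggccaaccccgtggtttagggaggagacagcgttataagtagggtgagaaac
Chac1, chr2:119351029-119351128, plus strand: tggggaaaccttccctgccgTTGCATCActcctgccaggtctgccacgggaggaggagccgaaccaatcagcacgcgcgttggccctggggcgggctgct
Slc7a11, chr3:50443600-50443699, minus strand: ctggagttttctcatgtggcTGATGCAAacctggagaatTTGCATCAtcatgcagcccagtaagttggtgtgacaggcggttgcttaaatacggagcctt
Atf3, chr1:191183364-191183463, minus strand: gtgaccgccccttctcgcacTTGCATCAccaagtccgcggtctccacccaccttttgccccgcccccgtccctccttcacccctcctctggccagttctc

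The element occurred 2 times in the Slc7a11 stretch, once in each orientation, and 1 time in each of the other 4. All 5 genes were higher in replicate 3 of both groups. Fgf21, a secreted hormone of the fasting and stress responses, showed the largest difference among genes of at least 5 RPKM. It stood at 14.2, 14.2 and 65.4 RPKM in shNC replicates 1, 2 and 3 and at 5.78, 7.56 and 34.6 RPKM in shM5 replicates 1, 2 and 3. Replicate 3 was 4.61 times the mean of the other 2 libraries with shNC and 5.19 times with shM5, and the averaged log2 difference of 2.28 ± 0.10 (SE, 6 libraries) corresponded to 4.87-fold. Nupr1, a small nuclear stress protein, stood at 59, 67.8 and 251 RPKM in the shNC libraries and 54.8, 58.1 and 193 RPKM in the shM5 libraries, in replicate order. Its replicate 3 difference was 1.88 ± 0.07, or 3.68-fold, and neither group's replicate 3 overlapped the other 4 libraries.

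Trib3, a pseudokinase that restrains ATF4 signalling, and Chac1, an enzyme that degrades glutathione, came next within the list. Trib3 was 32.6, 36.2 and 95.1 RPKM with shNC and 31.8, 30.3 and 107 RPKM with shM5, a difference of 1.62 ± 0.08. Chac1 was 35, 37.7 and 107 RPKM with shNC and 35.7, 36.2 and 96.1 RPKM with shM5, a difference of 1.49 ± 0.06. The replicate 3 difference of Trib3 was 1.47 with shNC and 1.78 with shM5, and that of Chac1 was 1.56 and 1.42. The glycine transporter Slc6a9 stood at 5.19, 6.26 and 16.2 RPKM and 5.54, 4.79 and 14.4 RPKM, a difference of 1.48 ± 0.10, and Slc7a11, the cystine importer, at 2.72, 3.28 and 6.79 RPKM and 3.01, 2.79 and 6.52 RPKM, a difference of 1.15 ± 0.11. Atf3, a stress transcription factor, was 11.5, 10.6 and 23 RPKM with shNC and 14.9, 14.8 and 34.4 RPKM with shM5.

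Of 25 ATF4 targets and amino acid enzymes tested, 18 were counted higher (7.48% of all genes tested were) and 0 lower. The median difference was 0.79 against 0.10 over all genes tested. The counted genes covered regulators (Ddit3, Atf3, Trib3, Sesn2), importers (Slc7a5, Slc3a2) and enzymes of proline, cysteine and asparagine synthesis (Pycr1, Aldh18a1, Cth, Asns). Asns, which makes asparagine and had the highest level of the 18, stood at 261, 261 and 441 RPKM with shNC and 248, 258 and 387 RPKM with shM5, a difference of 0.69 ± 0.05. The enzymes of serine synthesis stood lower in the order of differences, at 0.41 for Psph, 0.25 for Phgdh and 0.19 for Psat1, none of them counted. Atf4 itself differed by 0.31 ± 0.04 and was not counted, with 295, 294 and 363 RPKM in the shNC libraries and 283, 279.9 and 349 RPKM in the shM5 libraries. Among the 37 aminoacyl-tRNA synthetases, which charge tRNAs with amino acids and include further ATF4 targets, 0 were counted in either direction and the median was 0.15.

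**Figure D1:**
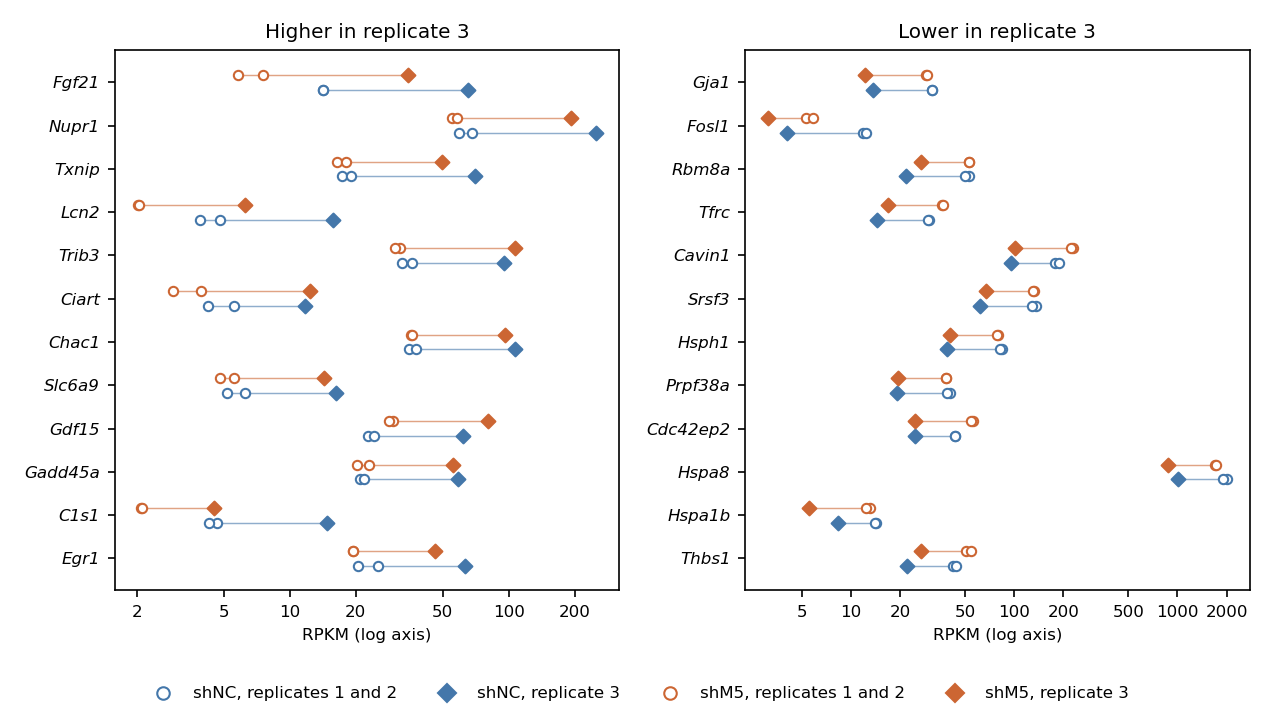
RPKM on a log axis in each of the 6 C18-4 libraries for the 12 genes with the largest replicate 3 difference in each direction among counted genes of at least 5 RPKM. Open circles are replicates 1 and 2, diamonds are replicate 3 and lines join the lowest and highest library of a group. For Fgf21 the diamonds stand at 65.4 (shNC) and 34.6 RPKM (shM5), with the circles between 5.78 and 14.2 RPKM, and for Hspa8 the diamonds stand at 1003 and 871 RPKM, with the circles between 1710 and 2001 RPKM.

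The higher side also held genes that respond to growth factor withdrawal, energy status and DNA damage. Txnip, an inhibitor of thioredoxin and of glucose uptake, was 17.3, 19.1 and 69.8 RPKM in the shNC libraries and 16.4, 18 and 49.3 RPKM in the shM5 libraries, a difference of 1.72 ± 0.09. Its relative Arrdc4 differed by 1.07 ± 0.12. Of 21 genes of the FOXO and growth factor withdrawal list, 7 were counted higher (7.48% of all genes tested were) and 0 lower. The list median was 0.51. Besides Txnip and Arrdc4 the counted genes included the receptor genes Insr (0.71 ± 0.10) and Erbb3 (0.72 ± 0.18) and the cyclin gene Ccng2 (0.75 ± 0.12). Erbb3 was 1.47, 1.53 and 3.53 RPKM with shNC and 3.5, 3.99 and 4.49 RPKM with shM5. Its difference was 1.18 with shNC and only 0.26 with shM5. Gdf15, a secreted stress hormone, was 22.9, 24.3 and 61.7 RPKM with shNC and 29.6, 28.2 and 80.3 RPKM with shM5, and Gadd45a, which binds proliferating cell nuclear antigen, was 20.9, 21.9 and 58.6 RPKM and 20.4, 22.9 and 55.5 RPKM. Both genes stood clear of replicates 1 and 2 in each group, by 1.43 ± 0.05 and 1.40 ± 0.06. The p53 target and kinase inhibitor list, which did not hold Gadd45a, as a whole did not lie to one side. It had 2 of 24 genes higher (Gdf15 and Sesn2), 1 lower (Cdkn2c) and a median of 0.01.

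Hypoxia-inducible factor (HIF) targets were partly higher, and as a list mainly with shNC. The list median was 0.43 with shNC and 0.05 with shM5, against 0.11 and 0.08 over all genes tested. Of all genes tested 7.48% were counted higher. Among 18 tested, 4 were counted higher and 0 lower with a median of 0.23, namely Vegfa, the vessel growth factor (25.1, 28.5 and 52.5 RPKM with shNC and 27.7, 27.9 and 44.8 RPKM with shM5), Ndrg1 (0.80 ± 0.05), Ero1l (0.67 ± 0.07) and Ddit4 (0.60 ± 0.12). Within glycolysis, 2 of 19 genes were counted higher, Aldoc (0.90 ± 0.15) and Eno2 (0.89 ± 0.10), and the main enzymes Gapdh (-0.08), Pkm (-0.26) and Ldha (-0.23) were not counted. The median of the glycolysis list was -0.02 in the deposited values and 0.03 and 0.05 after scaling to the same sum and quantile normalisation, so it had no stable sign.

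Some immune and inflammatory genes were higher. Lcn2, an iron-trapping protein of the acute phase, was 3.9, 4.81 and 15.7 RPKM with shNC and 2.02, 2.04 and 6.27 RPKM with shM5, a difference of 1.71 ± 0.11. The NF-kB subunit gene Relb stood at 23.8, 22.3 and 41.8 RPKM and 17, 16.7 and 41.3 RPKM, a difference of 1.07 ± 0.09, and complement C3 at 25, 28.3 and 53.1 RPKM and 12.8, 14.7 and 18 RPKM, a difference of 0.69 ± 0.12. In the C3 values shM5 replicate 3 lay below all shNC libraries, although above its own group. Of 24 NF-kB targets, chemokines and cytokines, 8 were counted higher (7.48% of all genes tested were) and 0 lower, with a median of 0.38. The low-level genes Saa3 (1.39 ± 0.28) and Ccl20 (1.29 ± 0.14) were among them.

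Interferon-stimulated genes gave 9 counted higher and 0 lower of 36, with a median of 0.45. Of all genes tested 7.48% were counted higher, but the share was larger at low levels. It was 153 of 695 genes of 1 to 2 RPKM and 255 of 1562 genes of 2 to 5 RPKM. Of the genes named next, Irf7, Gbp2, Dhx58 and Rsad2 had means in these classes. Irf7, the transcription factor that amplifies interferon production, was 3.23, 2.74 and 4.97 RPKM with shNC and 2.94, 2.8 and 5.68 RPKM with shM5, and Irf9, a subunit of the interferon-activated factor ISGF3, was 6.34, 7.23 and 10.1 RPKM and 7.38, 5.62 and 11.7 RPKM. Gbp2 differed by 0.77 ± 0.12, Dhx58 by 0.81 ± 0.20 and Rsad2 by 0.75 ± 0.21. Isg15 (0.13), Ifit3 (-0.02) and Oasl1 (0.05), which encode common interferon-induced proteins, were not counted. Of the 8 guanylate-binding protein genes tested, a family chosen after its values were seen, 6 were counted higher. Summed over 7 macrophage markers the level was 5.12 RPKM in shNC replicate 3 and 3.34 RPKM in shM5 replicate 3, against 2.77 to 3.28 RPKM in the other 4 libraries. The defining macrophage gene Adgre1 was 0 RPKM in all 6 libraries, and Csf1r and Ptprc were at most 0.08 RPKM and 0.04 RPKM. In bulk RNA, fewer cells of a type and less RNA per cell cannot be told apart.

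Immediate early genes, which are transcribed within minutes of a stimulus, lay on both sides. Egr1 was 20.4, 25.2 and 62.8 RPKM with shNC and 19.4, 19.5 and 46.3 RPKM with shM5, a difference of 1.36 ± 0.08. Klf10 (0.97 ± 0.07), Ier2 (0.96 ± 0.08) and Klf4 (0.90 ± 0.08) were likewise higher. Fosl1, which encodes the AP-1 subunit FRA-1, was lower, at 11.9, 12.4 and 4.04 RPKM with shNC and 5.34, 5.83 and 3.11 RPKM with shM5, a difference of -1.19 ± 0.14. Of 17 genes in the list 5 were higher (7.48% of all genes tested were) and 1 lower, with a median of 0.34.

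Circadian clock genes had 5 of 14 counted higher (7.48% of all genes tested were) and 0 lower, with a median of 0.34. Ciart, a repressor of the clock's CLOCK and BMAL1 activators, was 4.24, 5.55 and 11.7 RPKM with shNC and 2.92, 3.94 and 12.3 RPKM with shM5, a difference of 1.54 ± 0.16. The other counted genes were Per3 (0.76 ± 0.21), Nr1d2 (0.68 ± 0.08), Dbp (0.61 ± 0.17) and Bhlhe41 (0.69 ± 0.19), and the core activators Clock (0.06) and Arntl (0.39) were not counted. Tsc22d3, known as a glucocorticoid-induced gene, differed by 1.12 ± 0.08. It was the only gene counted of 5 glucocorticoid targets tested, of which 2 differences were below 0, with a median of 0.16. Lysosome and autophagy genes gave 5 of 26 higher (19.2%, against 7.48% of all genes tested) and 0 lower, with a median of 0.34. The list was led by the lysosomal calcium channel gene Mcoln1 (0.83 ± 0.07), the progranulin gene Grn (0.67 ± 0.09) and the cholesterol exporter gene Npc1 (0.64 ± 0.07).

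The metal-binding metallothioneins were higher from a high base. Mt1 was 161, 159 and 295 RPKM with shNC and 95, 102 and 155 RPKM with shM5, a difference of 0.77 ± 0.06, and Mt2 was 85.7, 80.1 and 135 RPKM and 35.9, 37.5 and 55.7 RPKM, a difference of 0.65 ± 0.05. In both genes shM5 replicate 3 lay below shNC replicates 1 and 2, so replicate 3 stood out within each group only. These were 2 of 6 genes of the metallothionein and zinc transport list, with 0 lower (7.48% of all genes tested were counted higher).

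Several heat shock protein genes were on the lower side. Hspa8, the constitutive HSP70 chaperone and the most highly expressed counted gene of this list, was 2001, 1903 and 1003 RPKM with shNC and 1710, 1727 and 871 RPKM with shM5, a difference of -0.97 ± 0.05. Both replicate 3 values stood below all 4 others. Its cofactors followed, with Hsph1 at 84.8, 81.6 and 38.8 RPKM and 79.6, 79 and 40.5 RPKM (-1.03 ± 0.05) and Dnaja1 at 126, 120.1 and 63 RPKM and 119.6, 117 and 65.1 RPKM (-0.91 ± 0.05). Hsp90aa1, the inducible HSP90 gene, was 796, 777 and 425 RPKM and 798, 795 and 514 RPKM (-0.76 ± 0.06), and the inducible HSP70 gene Hspa1b differed by -0.97 ± 0.10. Hspa1a and Hspa1b are near-identical copies, so their reads may have been split between them. Of 20 genes tested 6 were counted lower (1.36% of all genes tested were) and 0 higher, with a median of -0.46. The transcript of the regulator Hsf1 differed by 0.33 and was not counted.

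Genes for the folding of secreted proteins and for protein degradation were hardly counted, where 1.36% of all genes tested were counted lower. Among 21 chaperones and unfolded protein response genes of the endoplasmic reticulum 1 was lower, Manf (-0.72 ± 0.06), 4 differences were above 0, and the median was -0.24. None of 37 proteasome subunit genes was counted, 5 differences were above 0, and the median was -0.25.

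A few genes for making ribosomes were lower. Dkc1, the pseudouridine synthase dyskerin, was 44.7, 43.7 and 23.2 RPKM with shNC and 44.1, 44.1 and 25.4 RPKM with shM5, a difference of -0.86 ± 0.05. Nhp2 (-0.71 ± 0.05) belongs to the same particle, and Mybbp1a (-0.74 ± 0.11), Nop2 (-0.60 ± 0.06) and Bop1 (-0.59 ± 0.09) act in the nucleolus. Of 28 nucleolar genes tested 5 were lower (1.36% of all genes tested were) and 0 higher, with a median of -0.36. Of the 80 ribosomal protein genes 1 was counted lower, Rpl36al (-0.62 ± 0.05), with a median of -0.10 that turned to 0.02 after quantile normalisation.

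Some splicing genes were also on the lower side. Srsf3, an SR protein that binds exons, was 137, 128 and 61.6 RPKM with shNC and 132, 131 and 67.7 RPKM with shM5, a difference of -1.03 ± 0.05. Rbm8a, a core protein of the exon junction complex, was 53, 50.05 and 21.7 RPKM and 52.8, 52.6 and 26.9 RPKM (-1.10 ± 0.07), and the spliceosome gene Prpf38a was 40.5, 38.5 and 19.1 RPKM and 38.1, 38.1 and 19.3 RPKM (-1.01 ± 0.05). Of 10 SR protein genes, a group chosen after its values were seen, 3 were counted lower and all 10 differences were negative, with a median of -0.49. Among 66 other spliceosome genes, chosen in the same way, 7 were lower and 0 higher. For comparison, 1.36% of all genes tested were counted lower, and 56 of the 1925 genes of 50 RPKM and over were.

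Of the cell cycle genes, a few mitotic genes were lower, and replication genes lay near the median of all genes. Plk1, a mitotic kinase, was 77.9, 76.3 and 43 RPKM with shNC and 65.7, 63.8 and 42.3 RPKM with shM5 (-0.73 ± 0.06), Ccnf differed by -0.75 ± 0.06 and Cenpa by -0.60 ± 0.05. These were the 3 genes counted among 33 of the G2/M list, whose median was -0.23. For comparison, 1.36% of all genes tested were counted lower. Of 35 genes of the G1/S and replication list 1 was lower, Fen1 (-0.60 ± 0.05), and the list median of 0.09, close to that of all genes, was -0.01 with median-ratio scaling. Cdkn2c, an inhibitor of the kinases CDK4 and CDK6, was itself lower, at 48.5, 41.7 and 28.2 RPKM with shNC and 44.3, 47.9 and 23.7 RPKM with shM5. Tubulins, the subunits of microtubules, had 4 of 11 genes lower and 0 higher with a median of -0.47, a group chosen after its values were seen, led by Tubb4b (-0.96 ± 0.07) and Tuba1c (-0.93 ± 0.06).

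Single genes of iron uptake and of cholesterol synthesis were lower. Tfrc, the transferrin receptor that brings iron into cells, was 30.3, 29.8 and 14.4 RPKM with shNC and 36.1, 36.8 and 16.8 RPKM with shM5, a difference of -1.08 ± 0.05. Among 23 cholesterol genes 2 were lower (1.36% of all genes tested were) and 0 were higher, with a list median of -0.20. These were the synthesis genes Hsd17b7 (-0.78 ± 0.10) and Idi1 (-0.66 ± 0.08). For Idi1, shM5 replicate 3 lay above all 3 shNC libraries and was lower within its group only.

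Of the junction genes at the centre of the study, 1 of 18 tested was counted (8.85% of all genes tested were). This was Gja1, the gap junction protein connexin 43, at 31.6, 31.3 and 13.7 RPKM with shNC and 28.9, 29.1 and 12.2 RPKM with shM5, a difference of -1.22 ± 0.05 or 2.33-fold lower. The list median was 0.04, and it turned to -0.06 and -0.02 with median-ratio and quantile scaling. Ocln, Cldn11, Gja4 and Cdh1, which encode junction proteins stained in the study, stayed below 0.5 RPKM in every C18-4 library and were not tested. Phldb2, an adaptor of the cell cortex, differed by 0.19 ± 0.06 between replicate 3 and the others and was not counted. Its values were 78.2, 79.7 and 83.4 RPKM with shNC and 49.4, 52.4 and 63 RPKM with shM5. Of 32 collagen and matrix glycoprotein genes 3 were lower (1.36% of all genes tested were) and 0 higher, while the list median was 0.01. The 3 were Thbs1 (-0.97 ± 0.05), the collagen crosslinking enzyme gene Lox (-0.67 ± 0.07) and Vcan (-0.65 ± 0.11). Cavin1, a coat protein of caveolae, was 178, 187 and 96 RPKM and 228, 222 and 102 RPKM, a difference of -1.04 ± 0.06, and Cdc42ep2, an effector of the GTPase CDC42, differed by -0.98 ± 0.07.

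**Figure D2:**
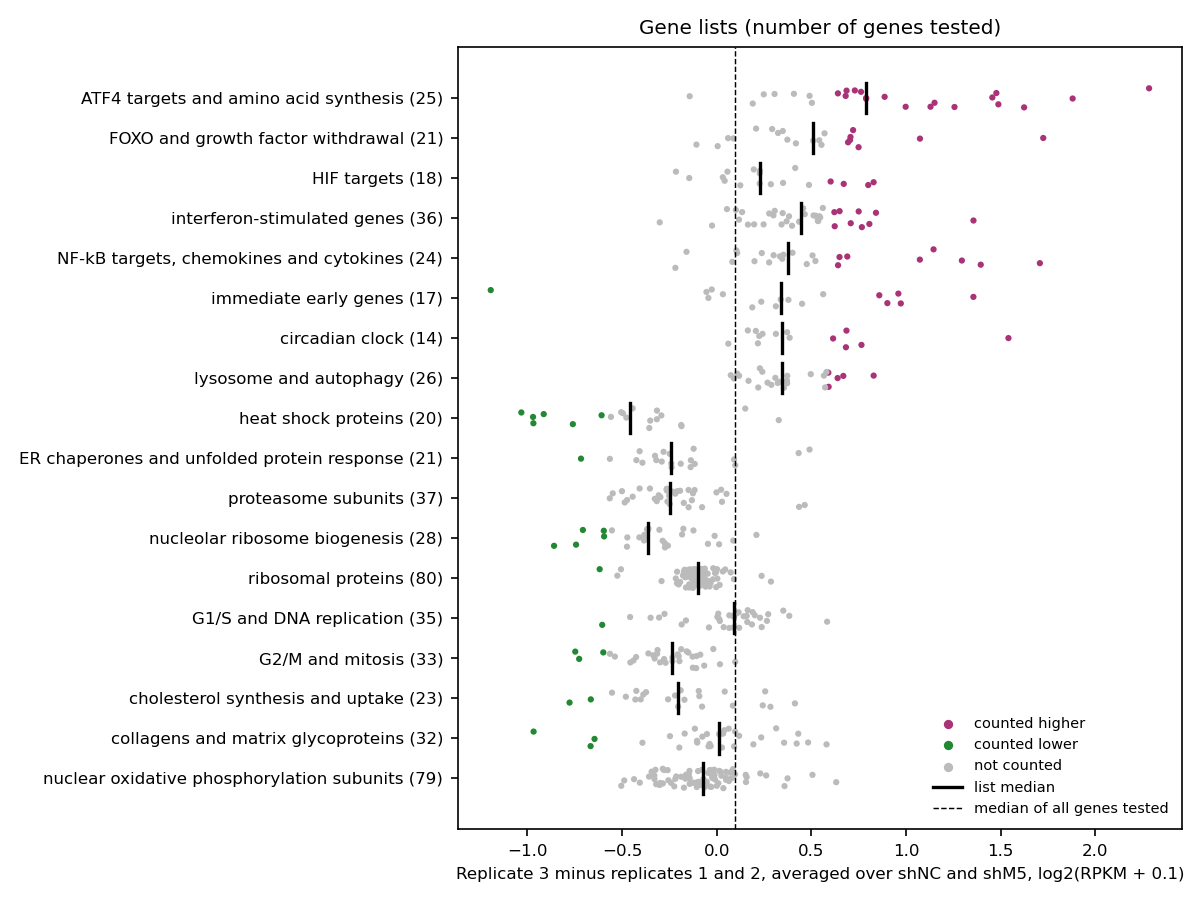
Replicate 3 difference of each gene in 18 lists, averaged over shNC and shM5, on the log2(RPKM + 0.1) scale, with the number of genes tested in brackets. Thick bars mark list medians and the dashed line the median of all 11611 genes, 0.10. The list medians run from 0.79 for ATF4 targets and amino acid synthesis to -0.46 for heat shock proteins.

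Some other groups were found on looking through the values and are given as such. Of 21 amino acid transporter genes 9 were higher and 1 lower, including Slc38a7 (1.30 ± 0.07), Slc1a4 (1.18 ± 0.07) and the arginine importer Slc7a1 (0.74 ± 0.05). Of 10 complement genes 7 were higher, with C1s1 at 4.66, 4.26 and 14.8 RPKM with shNC and 2.09, 2.12 and 4.5 RPKM with shM5 (1.39 ± 0.14). Kruppel-like factors had 4 of 11 genes higher, and the genes of the Bardet-Biedl complex and of intraflagellar transport, which serve cilia, had 4 of 22 higher. Of all genes tested 7.48% were counted higher. No gene of the last 3 groups was counted lower.

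Other lists had few counted genes, where 7.48% of all genes tested were counted higher and 1.36% lower. None of 79 nuclear genes for oxidative phosphorylation and none of 16 for fatty acid synthesis was counted, with medians of -0.07 and 0.00. The NRF2 and glutathione list had 1 higher gene, Slc7a11, and 1 lower, the pentose phosphate enzyme gene Pgd (-0.71 ± 0.07), of 22, with a median of -0.21. MAPK feedback genes had 1 lower of 12, Etv4 (-0.75 ± 0.18), with a median of 0.05, and smooth muscle contractile genes 1 lower of 10, Acta2 (-0.61 ± 0.09), with a median of -0.22. Of the targets of transforming growth factor beta and bone morphogenetic protein signalling, Id2 (-0.79 ± 0.05) and Id4 (-0.89 ± 0.14) were lower, 2 of 10 tested, and the median was -0.25. Id4 is also a marker of spermatogonial stem cells. Summed over the markers in the table, the spermatogonial list was 156 RPKM in shNC replicate 3 and 189 RPKM in shM5 replicate 3, against 196 to 222 RPKM in the other libraries, with most of it from Uchl1 and Cd9.

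The difference depended on expression level. Genes between 0.5 and 1 RPKM had a median difference of 0.31, and genes of 50 RPKM and over a median of -0.08. The 869 higher genes had a median expression of 3.35 RPKM, and the 158 lower genes 27.1 RPKM, against 13.7 RPKM for all genes tested. Among the 8784 genes of at least 5 RPKM, 338 were higher (3.85%) and 122 lower (1.39%). A difference of at least 2-fold was found for 125 higher and 17 lower genes, and 811 higher and 145 lower genes had both replicate 3 values outside all 4 other libraries. The split between the directions rested on the scaling. Of the counted genes 84.6% were higher in the deposited values, 64.7% with median-ratio size factors (553 higher and 302 lower), 52.8% with quantile normalisation (372 and 333) and 89.7% after scaling to the same sum (1048 and 120). None of the 1027 genes turned sign under these scalings, but the fold limit of the counting rule largely fixed this. The median over all genes was 0.10 in the deposited values and between -0.0027 and 0.14 under the scalings. Of the 869 higher genes, 553 were still counted with median-ratio size factors, 364 with quantile normalisation and 869 after scaling to the same sum. Of the 158 lower genes, 158, 143 and 120 were still counted, in the same order.

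**Figure D3:**
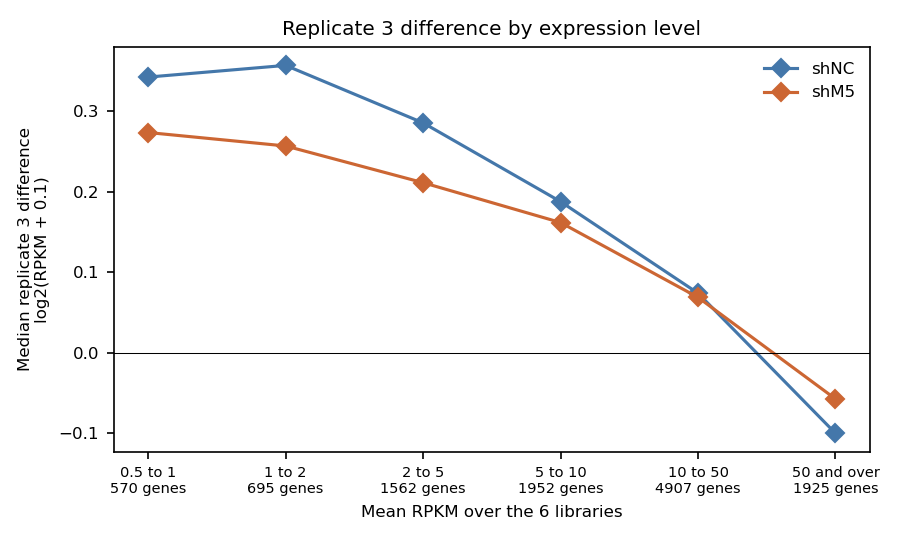
Median replicate 3 difference on the log2(RPKM + 0.1) scale in 6 classes of mean RPKM, for shNC and shM5 separately, with the number of genes under each class. The medians run from 0.34 (shNC) and 0.27 (shM5) in the lowest class to -0.10 and -0.06 in the highest.

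At the edge of the rule, Gm4924 was the counted higher gene of at least 5 RPKM with the smallest difference, 4.8, 4.85 and 7.8 RPKM with shNC and 5.53, 5.91 and 8.06 RPKM with shM5, and Nudt12 just missed with 5.75, 6.11 and 9.37 RPKM and 7.13, 8.18 and 11 RPKM. On the lower side Pdzrn3 was just inside, at 23.5, 23 and 16.6 RPKM and 24.6, 25.1 and 15.4 RPKM, and Gart just outside, at 39.5, 38 and 22.8 RPKM and 38.9, 37.1 and 28.6 RPKM.

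The 2 groups were then compared. The replicate 3 differences of shNC and of shM5 had the same sign in 9116 genes (78.5%), and across the 11611 genes, which are not independent replicates, Pearson's r was 0.631 and Spearman's rho 0.709. The 2 differences share no library. Their root mean square was 0.42 with shNC and 0.37 with shM5 on the log2 scale, and 0.36 when averaged over both groups. That of the difference between shM5 and shNC averaged over replicates was 0.26. These values average different numbers of libraries and so carry unequal noise, and their sizes are not directly comparable. The median difference of the higher genes was 0.81 with shNC and 0.71 with shM5, and that of the lower genes -0.82 and -0.65.

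**Figure D4:**
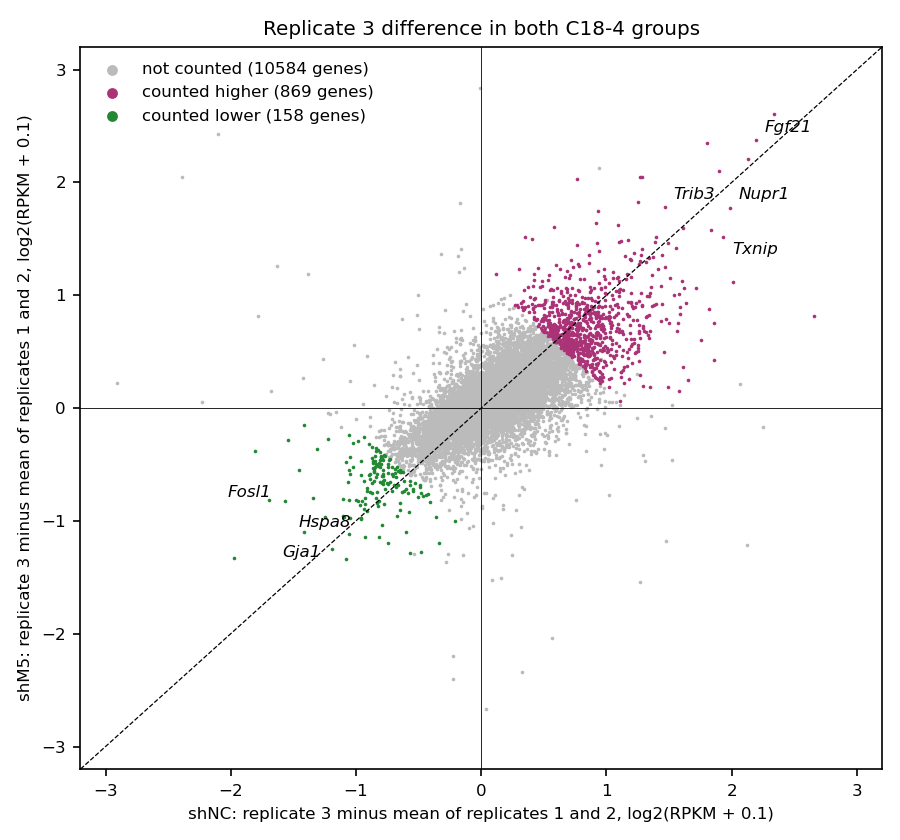
Replicate 3 minus the mean of replicates 1 and 2 on the log2(RPKM + 0.1) scale, with shNC on the horizontal and shM5 on the vertical axis, for genes of at least 0.5 RPKM. Each point is a gene, the 869 counted higher and 158 counted lower genes are coloured, the dashed line marks equal differences, and 9 genes lie outside the axes. Nupr1 lies near the line, at 1.99 and 1.77, and Gja1 below 0 on both axes, at -1.19 and -1.25.

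Whether the replicate 3 difference depended on the shRNA was tested as an interaction of the replicate 3 indicator with the shRNA. In the limma fit 306 genes had an adjusted p below 0.05 (2.64% of those tested), with the shM5 minus shNC value above 0 in 134 and below 0 in 172. The same fit with a replicate block, which assumes that the replicate numbers pair the libraries, called 502 genes (4.32%), 247 above and 255 below 0. In 230 of the 306 genes the replicate 3 difference was smaller in size with shM5 than with shNC, and in 131 the 2 groups had opposite signs. Of the 1027 counted genes 50 were called (4.87%), a share that the counting rule bears on, since it asked for the same side in both groups and so kept out the 131 genes. Each group had a single replicate 3 library, which the test took to vary like replicates 1 and 2. The fit without a block left 2 residual degrees of freedom. The block fit gave the same interaction values and left fewer. Leaving out shNC replicate 1 or shNC replicate 2 took the count to 0 in limma (2041 and 2445 genes at an unadjusted p below 0.05, and 2389 with all libraries), and it was 84 without shM5 replicate 1, 91 without shM5 replicate 2 and 2 without a mean-variance trend.

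Dcn had the smallest p. This gene encodes decorin, a proteoglycan that binds collagen, and stood at 94.7, 91.4 and 184 RPKM with shNC and 146, 143 and 163 RPKM with shM5, so replicate 3 was 0.98 above the others with shNC and 0.18 with shM5 (interaction -0.80 ± 0.07, adjusted p = 0.00293). Prph, an intermediate filament gene, was 37.5, 37 and 76.5 RPKM and 51.7, 48.9 and 60.5 RPKM (interaction -0.77 ± 0.08, adjusted p = 0.00785). Nkain4 was 14.8, 13.4 and 30.6 RPKM with shNC and 14, 15.8 and 15.1 RPKM with shM5, where replicate 3 lay between the other 2 libraries (interaction -1.09 ± 0.13). Slc16a3, the lactate exporter MCT4, was 46.6, 46 and 54.9 RPKM with shNC and 45.3, 42.7 and 31.1 RPKM with shM5, higher in replicate 3 of shNC and lower in replicate 3 of shM5 (interaction -0.74 ± 0.08), and C1qtnf1 behaved in the same way, with 18.3, 19 and 23.1 RPKM and 24.9, 26.6 and 17.4 RPKM (interaction -0.87 ± 0.10). The adjusted p of each of the last 3 was 0.00785.

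On the other side, the lower level in replicate 3 was weaker with shM5. Mybbp1a was 199.9, 193 and 94.6 RPKM with shNC and 167, 172 and 126 RPKM with shM5 (interaction 0.62 ± 0.07). Pop1, a subunit of the ribonucleases P and MRP, was 14.3, 14.2 and 5.7 RPKM and 12.1, 11.8 and 9.27 RPKM (0.95 ± 0.12), Srrt was 72.2, 71.3 and 33.9 RPKM and 64.3, 64.5 and 46.2 RPKM (0.60 ± 0.07) and the peptidyl-prolyl isomerase gene Fkbp11 was 37.5, 37.9 and 19.7 RPKM and 32.5, 32.8 and 27.4 RPKM (0.68 ± 0.08). Gm20594, a predicted gene, was 526, 500.2 and 439 RPKM with shNC and 556, 559 and 716 RPKM with shM5 (0.59 ± 0.07), lower in the former and higher in the latter. The adjusted p was 0.00785 for each of these 5 genes.

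**Figure D5:**
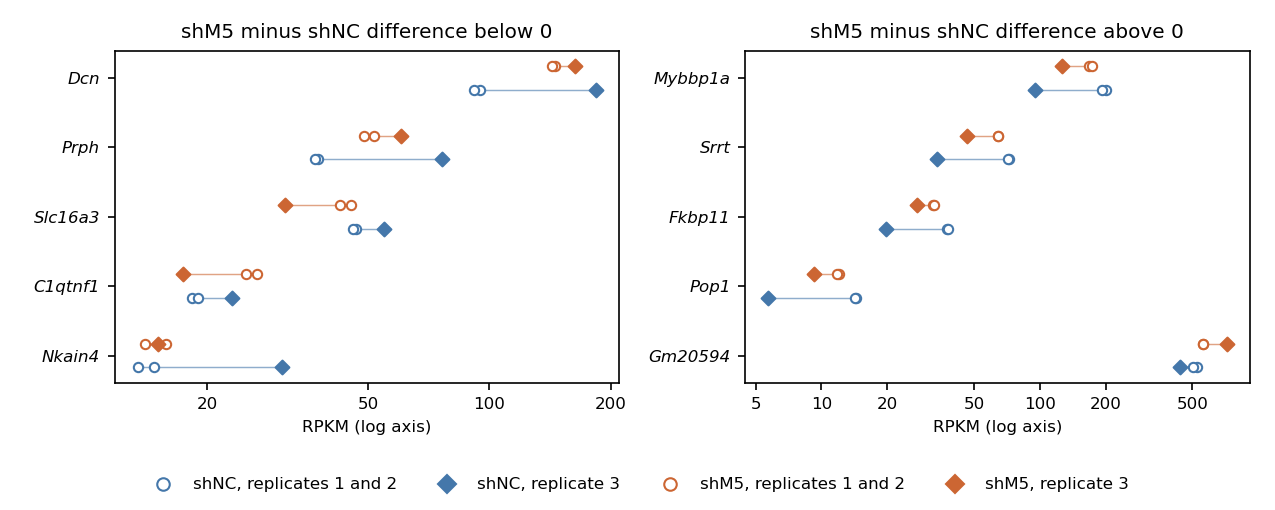
RPKM on a log axis in each C18-4 library for the 5 genes with the smallest interaction p in each direction among genes of at least 5 RPKM. Open circles are replicates 1 and 2 and diamonds are replicate 3. The Dcn diamond stands at 184 RPKM with shNC, away from the circles at 91.4 and 94.7 RPKM, and at 163 RPKM with shM5, next to circles at 143 and 146 RPKM.

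The interaction called 2.64% of all genes tested, a share at which lists this short would hold few called genes or none. By list, it called 6 of 28 nucleolar ribosome biogenesis genes, all above 0, among them Ddx21, Ncl and Rrp12. It called 6 of 26 lysosome and autophagy genes, all below 0, including Grn (adjusted p = 0.0213), Hexa (0.0358) and Ctsb (0.0214). HIF targets had 4 of 18 called, all below 0 and among them Pdk1 (-1.22) and Bnip3 (-0.60), and glycolysis genes 4 of 19, all below 0 and among them the glucose importer gene Slc2a1 (-0.75). The NF-kB list had 4 genes above 0 and 1 below of 24, including Relb (0.43, adjusted p = 0.0427) and C3 (-0.61, adjusted p = 0.046). Of the 25 ATF4 genes 0 were called by limma (3 at an unadjusted p below 0.05, and 1 called with the replicate block), and of the 14 circadian genes 0 (3 unadjusted, 0 with the block), which does not show that the groups were equal there. For Fgf21 the interaction was 0.18 ± 0.18 and for Hspa8 -0.02 ± 0.09.

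The last comparison asked whether the counted genes differed between shM5 and shNC. The counting rule bears on the shares called. A large replicate 3 difference widens the spread in the fit without a block. The demand for the same side in both groups bears on the spread of the block fit. The shares therefore cannot show whether counted genes differed more or less often than other genes. Without a block 1 of the 1027 had an adjusted p below 0.05 (0.0974%), against 68 of all genes tested (0.586%). This was Slpi, a secreted protease inhibitor, at 2.41, 1.8 and 2.99 RPKM with shNC and 0.24, 0.25 and 0.5 RPKM with shM5 (adjusted p = 0.0367). With the replicate number as a block, which removes the replicate 3 difference from the spread, 154 of the 1027 were called (15%), against 1386 of all genes tested (11.9%). Of the 869 genes higher in replicate 3, 25 were increased and 97 decreased with shM5 in this fit, and of the 158 lower genes 19 were increased and 13 decreased, against 605 and 781 over all genes tested. On the log2 scale the shM5 minus shNC value of Fgf21 was -1.03 ± 0.08 (SE of the block fit, adjusted p = 0.00104), and that of Lcn2 was -1.14 ± 0.11 (adjusted p = 0.00146). Mt2 was also decreased, at -1.21 ± 0.05 (adjusted p = 0.000158), and so was C3, at -1.15 ± 0.12 (adjusted p = 0.00206). Lox, lower in replicate 3, was decreased with shM5 as well, at -1.12 ± 0.07 (adjusted p = 0.000464). Acta2, lower in replicate 3, was increased with shM5, at 1.34 ± 0.09 (adjusted p = 0.000608). These calls rested on the block. Without it the limma adjusted p was 0.708 for Fgf21, 0.534 for Lcn2 and 0.0985 for Mt2. For C3, Lox and Acta2 it was 0.158, 0.130 and 0.0764.

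In the Sertoli cell line TM4, shNC replicates 1 and 2 stand apart from the other 4 TM4 libraries, and their values are set beside those of C18-4 replicate 3 as a description, since this division was also seen in the data. The lines share no library. Of 620 higher genes that had a mean of at least 0.5 RPKM in TM4, 255 (41.1%) lay above all 4 other TM4 libraries in both of these and were at least 1.5-fold higher on average, against 11.8% of all genes tested in both lines, and 32 were lower. Of 136 lower genes 71 (52.2%) were lower there, against 14.3%. The 255 genes were 20.6% of the 1238 genes counted higher in TM4, and the 71 were 4.74% of the 1499 counted lower. Nupr1 stood at 439.8, 447 and 63 RPKM in TM4 shNC replicates 1, 2 and 3 and 60.5, 65 and 55.2 RPKM in TM4 shM5 replicates 1, 2 and 3, and Hspa8 at 498, 514 and 2017 RPKM and 1949, 1900 and 2127 RPKM. Of the 25 ATF4 genes, 24 were higher in these TM4 libraries. The 28 ribosome biogenesis genes had 11 higher and 0 lower in TM4, with a median of 0.46, whereas none was higher and 5 were lower in C18-4 replicate 3. Of the 23 cholesterol genes 19 were lower in TM4 and 2 in C18-4. Egr1 and Fosl1, at opposite ends in C18-4, were not counted in TM4 (-0.40 and 0.39).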

How the data were processed

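RNA-seq libraries were made by the authors from poly(A) RNA of 12 cell samples, and their reads were mapped to reference genes with SOAPaligner. Each deposited column holds RPKM per gene, calculated by the authors and rounded to 2 decimals. The genome build and annotation behind them are not given in the sources used here, and no read numbers come with the RPKM, so counting error is unknown and no count model was used. Steps of single reads were sought in genes between 0.1 and 1 RPKM, and only 23.7% to 37.1% of their ratios to shNC replicate 1 lay within 2% of ratios of whole numbers up to 3, so relative depth could not be settled. Columns were matched to libraries by name, and groups came from the sample titles.

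The members and gene lists were chosen with earlier results of these data known. The replicate 3 contrast was described, not tested, on log2(RPKM + 0.1) over genes whose C18-4 mean reached 0.5 RPKM. The interaction of replicate 3 with the shRNA, and shM5 against shNC, were tested with limma 3.58.1 in R 4.3.3 (eBayes with trend, Benjamini-Hochberg over 11611 genes, adjusted p below 0.05). Deviations from the group mean in shNC and shM5 libraries of equal number correlated at 0.439 (replicate 1), 0.409 (replicate 2) and 0.631 (replicate 3). Such deviations cancel out within a group, so the replicate 3 difference enters all 3 values. They therefore do not show whether replicates 1 and 2 were paired, and 0.631 comes from the contrast that singled out replicate 3. Pairing by number was assumed in the fits with a replicate block, whose values are given beside the others. Alternatives were other pseudocounts, filters, scalings, folds and fits, and leaving out each library. Promoter windows were searched and figures drawn in Python 3.11.15.

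The text names, per direction, the 12 counted genes of at least 5 RPKM with the largest difference, up to 5 counted genes of at least 1 RPKM per list, and the 5 genes of at least 5 RPKM with the smallest interaction p per direction. One gene is not reported here and was left out of its list. Genes named beyond these were picked with their values in view.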

Additional observations from a re-analysis of the deposited data

Results flagged for a closer look

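The replicate 3 difference depended on the shRNA, by the limma interaction test without a block, in 19 of the 98 genes that the naming rule gave. That rule took in 10 of the 19 for having the smallest interaction p, so the count is partly set by the choice. The values below are the shM5 difference minus the shNC difference on the log2(RPKM + 0.1) scale. Among genes lower in replicate 3 the value was above 0, so that the shM5 difference was nearer to 0, for Etv4 at 0.95 (adjusted p = 0.0265), Pop1 at 0.95, Fosl1 at 0.74 (adjusted p = 0.0399), Fkbp11 at 0.68, Mybbp1a at 0.62, Srrt at 0.60, Bop1 at 0.45 (adjusted p = 0.0224) and Lox at 0.34 (adjusted p = 0.0373). It was below 0 among genes higher in replicate 3 for Prph at -0.77, Ccng2 at -0.62 (adjusted p = 0.0219), C3 at -0.61 (adjusted p = 0.046), Grn at -0.47 (adjusted p = 0.0213) and Hexa at -0.38 (adjusted p = 0.0358). Relb, at 0.43 (adjusted p = 0.0427), was the exception among the higher genes, with the larger difference in shM5. Of the genes not counted, Nkain4 stood at -1.09, C1qtnf1 at -0.87, Dcn at -0.80 (adjusted p = 0.00293), Slc16a3 at -0.74 and Gm20594 at 0.59. The adjusted p was 0.00785 where none is given. In the fit with the replicate block all 19 kept an adjusted p below 0.05, from 0.00337 for Dcn to 0.0358 for Fosl1. The block fit gave the same interaction values with fewer residual degrees of freedom, so it is not independent evidence. Each group had 1 replicate 3 library, so the difference between the groups rests on 2 libraries. Without shNC replicate 1 and without shNC replicate 2, 0 of the 19 kept an adjusted p below 0.05 in limma, 11 did without shM5 replicate 1 and 10 without shM5 replicate 2. None of the 19 was called without a mean-variance trend or over all genes with a mean above 0, and all 19 kept the sign of their value in each of these fits.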

How the results depend on the processing

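The counts of genes higher and lower in replicate 3 moved with the scaling and the limits. Against 869 higher and 158 lower genes, there were 439 higher with a pseudocount of 1, 338 higher at a mean of at least 5 RPKM, 553 higher and 302 lower with median-ratio size factors, 372 higher and 333 lower with quantile normalisation, and 125 higher and 17 lower at 2-fold. Leaving out each library gave 846 to 1227 higher and 156 to 310 lower genes, the last without shM5 replicate 3, when a single replicate 3 library was left. The median over all genes, 0.10, was 0.14 after scaling to the same sum, -0.0018 with median-ratio and -0.0027 with quantile scaling. The 306 interaction genes became 568 after scaling to the same sum, 502 with the replicate block, 2 without a trend (1933 at an unadjusted p below 0.05) and 0 over all genes with a mean above 0 (2947 unadjusted). Leaving out a library gave 0 to 91, with 0 without shNC replicate 1 and without shNC replicate 2, 84 without shM5 replicate 1 and 91 without shM5 replicate 2. Without a replicate 3 library the interaction could not be fitted. Of the counted genes 1 differed between shM5 and shNC, 154 with the replicate block, and 0 to 15 when a library was left out, with 15 without shNC replicate 3, 3 without shM5 replicate 3 and 0 without each of the other 4 libraries in turn (20 to 41 at an unadjusted p below 0.05). Fewer libraries were fitted in these, and the other causes were not tested. Over 13 alternatives, 414 of the list medians moved by less than their spread and 142 by more, and for the named genes 921 and 335, none with a turned sign of a called value.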

Other observations

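Some highly expressed genes outside the lists also stood apart in replicate 3 of both groups, and were picked after their values were seen. Fscn1, an actin-bundling protein, was 535, 528 and 268 RPKM in shNC replicates 1, 2 and 3 and 379.7, 374 and 212 RPKM in shM5 replicates 1, 2 and 3, a replicate 3 difference of -0.91 ± 0.05 (SE). Cd24a, a glycosylphosphatidylinositol-anchored surface protein, was 211, 207 and 117 RPKM and 166, 161 and 91.1 RPKM, a difference of -0.84 ± 0.04. Anxa1, a phospholipid-binding annexin, was 461, 431 and 278 RPKM and 565, 551 and 344 RPKM, a difference of -0.69 ± 0.05. All 3 were lower in replicate 3. Both Fscn1 and Cd24a were also decreased with shM5 in the limma fit with the replicate block, at -0.44 (adjusted p = 0.00247) and -0.36 (adjusted p = 0.00295) on the log2 scale, and Anxa1 was increased, at 0.32 (adjusted p = 0.00367). Without the block the limma adjusted p of these 3 genes was 0.679, 0.733 and 0.708.

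On the higher side, Cd74, the invariant chain of antigen presentation, was 14, 13.4 and 28.6 RPKM with shNC and 6.83, 7.04 and 8.84 RPKM with shM5, a difference of 0.70 ± 0.13. Igfbp4, a binding protein of insulin-like growth factors, was 8.66, 10.1 and 20.5 RPKM and 5.3, 5.48 and 10.1 RPKM, a difference of 1.01 ± 0.09, and Serpinf1, the secreted factor PEDF, was 36.5, 35.6 and 61.5 RPKM and 24, 23 and 32.2 RPKM, a difference of 0.61 ± 0.07. These 3 genes were decreased with shM5 in the limma fit with the replicate block, at -1.21 (adjusted p = 0.00287), -0.86 (adjusted p = 0.00164) and -0.72 (adjusted p = 0.00208), and without the block their limma adjusted p was 0.153, 0.410 and 0.269.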
